A study of Mus musculus with 8 samples.

Results

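The 8 genes described here carry the working parts of a mast cell. They are the secretory granule proteases Cpa3, Mcpt4, Cma1 and Tpsb2, the receptors Kit, Fcer1a and Ms4a2, and Hdc, the enzyme that makes histamine. They were taken by name, by matching the mouse Ensembl identifiers of the count files to gene symbols, and are 8 of the 25006 identifiers counted in each library. Tumors had been grown from 4T1, a mouse mammary carcinoma line used to model triple-negative disease, injected into the fat pad and harvested within 20 days. Wild-type tumors came from the parental line (Par) and from a line called vCas9. Knockout tumors came from clones 54 and 69, in which CD95, the death receptor encoded by Fas, had been disrupted with CRISPR/Cas9. Each of the 4 lines was grown in NSG and in Balb/c mice, giving 4 groups of 2 libraries: wild type and knockout in each host.

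NSG mice have a NOD background, the scid mutation and no functional Il2rg, and lack mature T, B and NK cells while retaining myeloid cells. Balb/c mice are immunocompetent and are the strain from which 4T1 arose. Strain background and immune status therefore cannot be told apart between the hosts. The labels call the knockout lines clones but not the wild-type ones, so clonal origin and CD95 loss cannot be told apart either. The 2 libraries of a group are different lines, and whether a library held 1 tumor or several, and the age of the animals, are not given in the sources used here. The p-values measure the spread between such libraries.

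Mast cells are tissue-resident immune cells that mature where they settle, under the growth factor Kitl acting on its receptor Kit. Their granules hold proteases bound to the proteoglycan serglycin, together with histamine. Antigen that crosslinks IgE on the receptor FceRI, built from an alpha chain (Fcer1a), a beta chain (Ms4a2) and a gamma chain dimer (Fcer1g), triggers their release. In mouse connective tissue the usual protease set is Cpa3, Mcpt4, Cma1 and the tryptase Tpsb2, whereas Mcpt1 and Mcpt2 mark mucosal mast cells. Hdc, Kit and Fcer1a are not limited to mast cells: Hdc is also used by basophils and by cells of the neutrophil lineage, Kit by epithelial and melanocytic cells and progenitors, and Fcer1a by basophils.

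The libraries held 8680070 to 19655945 counts and 17463 to 18407 detected genes. Levels are given as CPM, counts relative to the library's total after scaling by the trimmed mean of M values (TMM). Il2rg was at 5.82 to 7.49 CPM in NSG and 98.3 to 157 CPM in Balb/c. Fas was at 33.9 and 22.6 CPM in the NSG wild-type libraries, 29.5 and 12.9 in the NSG knockout libraries, 51.6 and 46.9 in the Balb/c wild-type libraries and 27.1 and 33.7 in the Balb/c knockout libraries. Small edits can leave a transcript in place and host cells carry an intact Fas, so these counts do not check the edit. The libraries of a group differed far beyond counting noise, with a chi-square per degree of freedom of 18.1 in Balb/c wild type, 18.4 in NSG wild type, 43.7 in NSG knockout and 115 in Balb/c knockout. The 15310 genes that passed the low-count filter included all 8 genes, and a gene is called where the Benjamini-Hochberg adjusted p of edgeR's quasi-likelihood test is under 0.05.

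Promoters of genes that were lower in every Balb/c library than in any NSG library are shown because their levels are compared throughout. Promoter sequences from RefSeq (build GRCm38.p6) were used for 7 of the 8 genes, and that of Tpsb2 was not used here. Letters recognised by GATA factors, which drive the mast cell programme, were searched on both strands as GATA with A or T before it and A or G after it, in the window from 250 bases before to 50 bases after the start site. At least 1 match was present in 6 of the 7 genes, while 29.8% of all 32851 promoters of this length held one. Kit was the gene without a match. The 250 bases upstream of 3 of the proteases and of Fcer1a follow, read 5′ to 3′ on the gene's own strand, with matches in capitals (a match on the other strand appears as its reverse complement, and CACATG in Fcer1a is an E-box match).
Cpa3, chr3:20242182-20242431, minus strand: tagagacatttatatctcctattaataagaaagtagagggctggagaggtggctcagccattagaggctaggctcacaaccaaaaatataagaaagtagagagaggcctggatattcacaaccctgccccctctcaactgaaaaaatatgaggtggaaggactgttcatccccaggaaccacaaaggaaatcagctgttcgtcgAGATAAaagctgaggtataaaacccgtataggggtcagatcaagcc
Mcpt4, chr14:56062311-56062560, minus strand: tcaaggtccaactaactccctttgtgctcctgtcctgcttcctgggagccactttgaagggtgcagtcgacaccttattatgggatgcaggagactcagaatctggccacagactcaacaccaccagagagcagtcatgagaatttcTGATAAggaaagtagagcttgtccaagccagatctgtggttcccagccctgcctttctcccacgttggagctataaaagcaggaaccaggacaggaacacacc
Cma1, chr14:55944676-55944925, minus strand: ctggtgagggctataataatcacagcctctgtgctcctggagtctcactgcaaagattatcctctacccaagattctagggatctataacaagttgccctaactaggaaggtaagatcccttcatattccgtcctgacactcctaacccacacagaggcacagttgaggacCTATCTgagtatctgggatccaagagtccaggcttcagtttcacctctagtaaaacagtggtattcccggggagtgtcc
Fcer1a, chr1:173227230-173227479, minus strand: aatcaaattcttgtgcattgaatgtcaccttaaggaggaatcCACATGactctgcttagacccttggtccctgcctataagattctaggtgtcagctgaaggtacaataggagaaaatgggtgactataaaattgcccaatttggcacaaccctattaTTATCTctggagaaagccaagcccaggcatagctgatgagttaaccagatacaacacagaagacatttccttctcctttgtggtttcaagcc

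The first base of the match lay 46 bases upstream of the start site in Cpa3, 79 in Cma1, 92 in Fcer1a and 103 in Mcpt4. Hdc held TGATAG 221 bases upstream, and Ms4a2 held 3 matches. The E-box letters CATGTG or CACGTG, searched likewise, were present in 20.4% of all promoters and, among these genes, in Fcer1a only. A match is a description of the letters and not of a bound site.

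All 4 granule proteases were lower in Balb/c than in NSG tumors, in wild-type and in knockout pairs alike, and no Balb/c library reached the level of any NSG library. Cpa3, a carboxypeptidase that trims peptides and toxins (chr3:20215620-20242181, minus strand), was at 19.1 and 25.3 CPM in the NSG wild-type libraries and 24.8 and 48.1 in the NSG knockout libraries. It was at 5.78 and 4.37 CPM in the Balb/c wild-type libraries and 14.1 and 12.9 in the Balb/c knockout libraries. The 4 groups thus lay in the order NSG knockout, NSG wild type, Balb/c knockout, Balb/c wild type by their means, and the NSG groups overlapped each other. In the wild type Cpa3 was 4.38-fold lower in Balb/c (log2 fold change -2.13, SE 0.35, edgeR adjusted p = 0.00582), and in the knockout it was 2.70-fold lower (log2 fold change -1.43, SE 0.33, adjusted p = 0.0141).

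Mcpt4, the mouse chymase closest in function to the human one (chr14:56059629-56062313, minus strand), was at 12.5 and 19.7 CPM in NSG wild type and 21.4 and 38.3 in NSG knockout. In Balb/c it was at 5.10 and 3.74 CPM in wild type and 9.20 and 8.75 in knockout. Here the NSG groups did not overlap, and the mean order was the same as for Cpa3. The log2 fold change from NSG to Balb/c was -1.87 (SE 0.36, edgeR adjusted p = 0.00955) in the wild type and -1.73 (SE 0.35, adjusted p = 0.00844) in the knockout. The wild-type call was lost without the NSG vCas9 (adjusted p = 0.0622) or the Balb/c vCas9 library (adjusted p = 0.0727).

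Cma1, also called mouse mast cell protease 5 (chr14:55941451-55944675, minus strand), was at 19.7 and 27.2 CPM in NSG wild type and 20.5 and 39.0 in NSG knockout. In Balb/c it was at 4.59 and 5.89 CPM in wild type and 11.2 and 10.1 in knockout. The Balb/c wild-type libraries were the lowest of the 8 and the NSG clone 69 library was the highest. It fell 4.45-fold in the wild type (log2 fold change -2.15, SE 0.34, edgeR adjusted p = 0.00552) and 2.79-fold in the knockout (log2 fold change -1.48, SE 0.33, adjusted p = 0.0127).

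Tpsb2, a tryptase that forms heparin-stabilised tetramers (chr17:25366305-25369098, plus strand), had the widest range of the 4 proteases. It was at 25.0 and 37.6 CPM in NSG wild type, 23.3 and 60.0 in NSG knockout, 4.08 and 4.71 in Balb/c wild type and 13.5 and 11.4 in Balb/c knockout. The highest library was 14.7-fold above the lowest, against 8.50-fold for Cma1. In the wild type Tpsb2 was 7.09-fold lower in Balb/c (log2 fold change -2.83, SE 0.45, edgeR adjusted p = 0.00546). In the knockout it was 3.35-fold lower (log2 fold change -1.74, SE 0.42, adjusted p = 0.0170), a call also lost without the Balb/c clone 69 library (adjusted p = 0.0587).

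**Figure D1:**
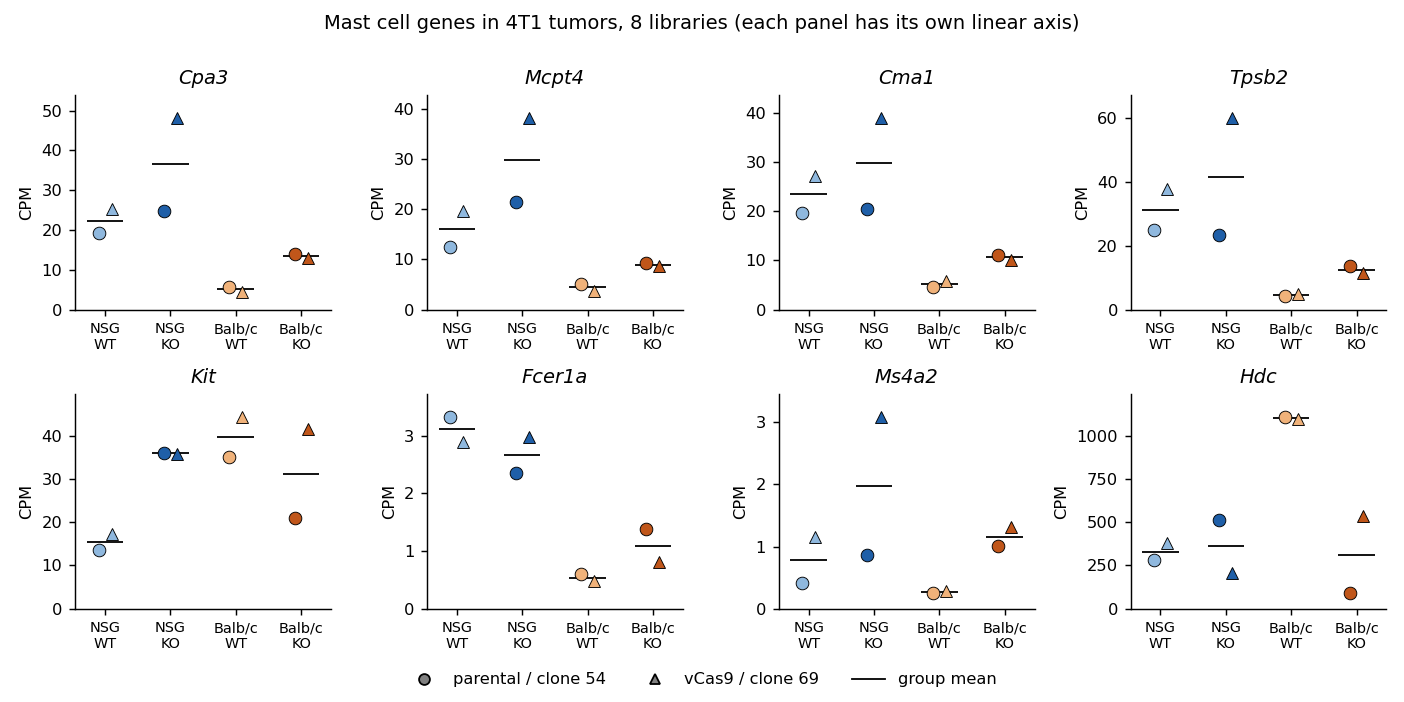
CPM of the 8 genes in each library (linear axes, 1 per panel; points are libraries, circles the parental line or clone 54, triangles vCas9 or clone 69, lines the mean of 2). The 4 proteases and Fcer1a lie lower in all 4 Balb/c libraries than in any NSG library, whereas Kit is lowest in NSG wild type and Hdc is highest in Balb/c wild type.

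Across all 8 genes, 5 were called lower and 1 higher in Balb/c wild-type tumors, where 16.2% of all genes tested were called lower and 15.3% higher. In the knockout 4 were called lower and 0 higher, where 15.4% of all genes were called lower and 15.7% higher. The median log2 fold change of the 8 genes was -1.9995 in the wild type and -1.35 in the knockout, against -0.08 and 0.02 over all genes. All 4 Balb/c libraries lay below all 4 NSG libraries for 5 of the 8 genes, as they did for 17.5% of all genes. With scaling by total counts the median of all genes moved to -0.24 in the wild type and -0.17 in the knockout, and 1905 of 5220 called genes were higher in the wild type instead of 2344 of 4825. In the knockout, 1756 of 4707 called genes were higher under that scaling instead of 2403 of 4757. The direction of each of the 8 genes was the same under each scaling tried. With the line as a replicate block, Cpa3 (adjusted p = 0.0538) and Tpsb2 (adjusted p = 0.0539) were no longer called in the knockout. Without the NSG clone 69 library, the highest for all 4 proteases, none of the 4 protease calls in the knockout remained, with log2 fold changes of -0.88 for Cpa3, -1.25 for Mcpt4, -0.95 for Cma1 and -0.91 for Tpsb2 and edgeR adjusted p of 0.0545 to 0.0955. Without the Balb/c vCas9 library, 3 of the 8 were called in the wild type, and Mcpt4, Fcer1a and Kit were lost. The calls over all genes moved too when 1 library was left out, from 4825 to between 858 and 6361 in the wild type and from 4757 to between 2461 and 4640 in the knockout, so the shares of all genes called hold for the fit of all 8 libraries.

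**Figure D2:**
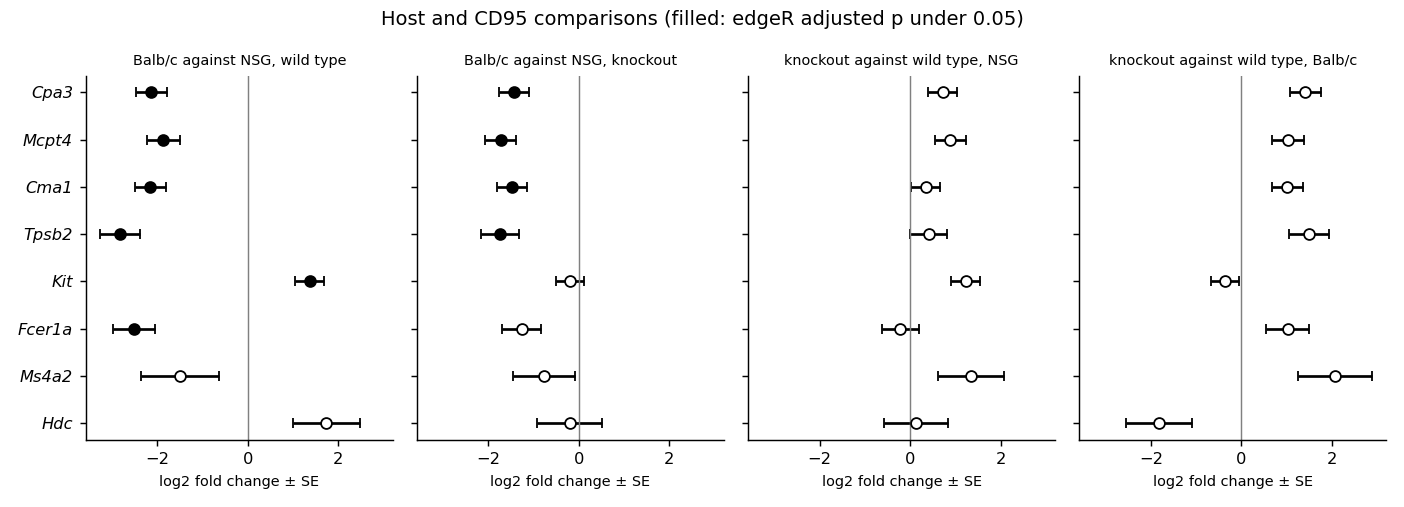
Log2 fold change (x axis) with its SE for the 8 genes in the 4 pairwise comparisons (2 libraries a group; filled points have an edgeR adjusted p under 0.05). The filled points are the 4 proteases in both host comparisons and Kit and Fcer1a in the wild-type host comparison; no point is filled in the knockout comparisons.

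Fewer cells of a type and less RNA per cell cannot be told apart in whole-tumor RNA, and 4T1 and host transcripts are both of mouse origin. Per kilobase of exon, the proteases had similar levels within a group: 14.6 CPM per kilobase for Cpa3, 14.6 for Mcpt4, 21.5 for Cma1 and 19.6 for Tpsb2 as means of NSG wild type, and 3.34, 3.99, 4.81 and 2.76 in the same order in Balb/c wild type. Summed over the 4 proteases, the level was 76.3 and 110 CPM in NSG wild type, 90.1 and 185 in NSG knockout, 19.5 and 18.7 in Balb/c wild type and 47.9 and 43.2 in Balb/c knockout. Genes of other cell types moved between the hosts as well. Their calls stand beside shares over all genes of 15.3% higher and 16.2% lower in the wild type. In the knockout these shares were 15.7% and 15.4%. The 8 fibroblast genes summed to 17741 to 34363 CPM in NSG and 4201 to 13442 CPM in Balb/c, with 0 of 8 called in the wild type and 7 of 8 called lower in the knockout. The 7 T cell genes found summed to 4.92 to 11.2 CPM in NSG and 291 to 381 CPM in Balb/c, and all 7 were called higher in both host comparisons. The 8 endothelial genes summed to 243 to 547 CPM in NSG and 188 to 553 CPM in Balb/c, with 3 of 8 called lower in the wild type and 1 of 8 called higher in the knockout. The 8 adipocyte genes had a median log2 fold change of -2.05 in the wild type and -2.96 in the knockout, with 3 called lower and 1 higher (Lipe, a lipase) in the wild type and 5 lower and 0 higher in the knockout. Among them Adipoq, the hormone adiponectin, was at 3.46 to 11.7 CPM in NSG and 0.510 to 1.31 CPM in Balb/c. The summed adipocyte level overlapped between the hosts, at 128 to 187 CPM in NSG and 56.1 to 292 CPM in Balb/c. That sum was largely 1 gene, Fabp4, at 87.4 to 151 CPM in NSG and 34.3 to 263 CPM in Balb/c. The 8 macrophage genes had 1 called higher and 2 lower in the wild type and 6 higher and 0 lower in the knockout, and of 8 dendritic cell genes 6 and 7 were called higher and 0 lower. The part of any of these in the protease levels was not tested.

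The ratio of the proteases to each other varied far less than their levels. Within a library there were 0.654 to 0.882 Mcpt4 counts, 0.785 to 1.35 Cma1 counts and 0.706 to 1.49 Tpsb2 counts for each Cpa3 count, although Cpa3 itself ranged 11.0-fold. The Tpsb2 ratio was highest in the NSG vCas9 library and lowest in the Balb/c parental library. Fcer1a had 0.0620 to 0.174 and Ms4a2 0.0217 to 0.102 counts per Cpa3 count. Kit ranged from 0.682 to 10.2 and Hdc from 4.31 to 251, so these 2 genes kept no fixed proportion to the proteases.

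**Figure D3:**
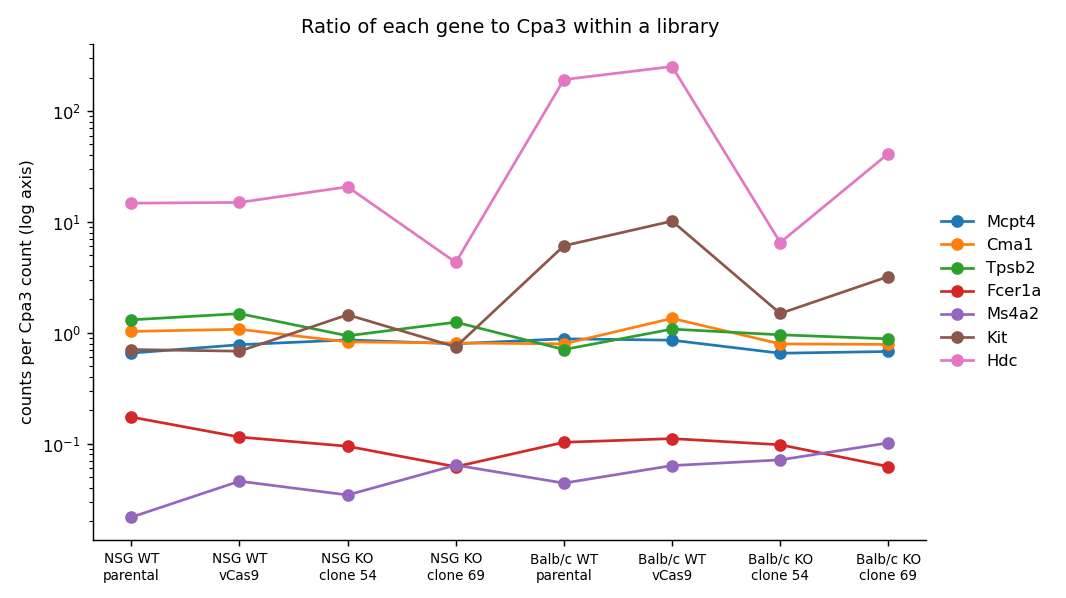
Counts of each gene per Cpa3 count (log axis) in each of the 8 libraries (points; lines join the same gene). Mcpt4, Cma1 and Tpsb2 stay between 0.654 and 1.49 in every library, whereas Kit and Hdc peak in Balb/c wild type, at 10.2 and 251.

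Correlations of log2 CPM over the 8 libraries describe the same pattern. They rest on points that share hosts and lines, so no p is given. Cpa3 was most like Mcpt4 (Pearson r 0.987) among 15309 other genes, and Cma1 and Tpsb2 were each most like the other (r 0.996). The next in rank for Cpa3 were Ppil1, Dpy30, Caskin2 and Naa10, for Cma1 Ttll12, Pheta1, Dctn1 and Fut8, and for Tpsb2 Idh3a, Rad51ap1, Ttll12 and Dctn1. For Mcpt4 the order was Cdc23, Cpa3, Lrr1, Rfc1 and Caskin2. For Cma1, Cpa3 came at rank 35 and Mcpt4 at rank 66 of 15309, behind genes of general use such as Dctn1, a subunit of the dynactin motor complex.

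Cma1 and Mcpt4 lie in a run of mast cell proteases on chromosome 14, which is followed by the granzymes of cytotoxic lymphocytes. The 15 protein-coding genes from Cma1 to Gzmb span 320810 bases. Of these, 3 (Cma1, Mcpt2 and Mcpt4) were lower in all 4 Balb/c libraries than in any NSG library, and 5 were higher, while 17.5% of all genes were lower and 16.1% higher in this way. Mcpt2, a mucosal mast cell chymase between Cma1 and Mcpt4, was at 12.1 and 28.6 CPM in NSG wild type, 8.56 and 51.9 in NSG knockout, 2.80 and 2.36 in Balb/c wild type and 2.91 and 2.33 in Balb/c knockout. It fell in both comparisons (log2 fold change -2.98, edgeR adjusted p = 0.0282 in the wild type; -3.52, adjusted p = 0.0143 in the knockout). Mcpt1, its mucosal partner, was at 4.57 to 14.0 CPM in NSG and 3.67 to 9.77 in Balb/c, overlapping between the hosts, and was called in neither. Gzmb, which cytotoxic T and NK cells release to kill targets, had 2, 2, 0 and 0 counts in the NSG libraries and 763, 2332, 1542 and 1987 in the Balb/c libraries (edgeR adjusted p = 0.000996 in the wild type and 0.000530 in the knockout).

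**Figure D4:**
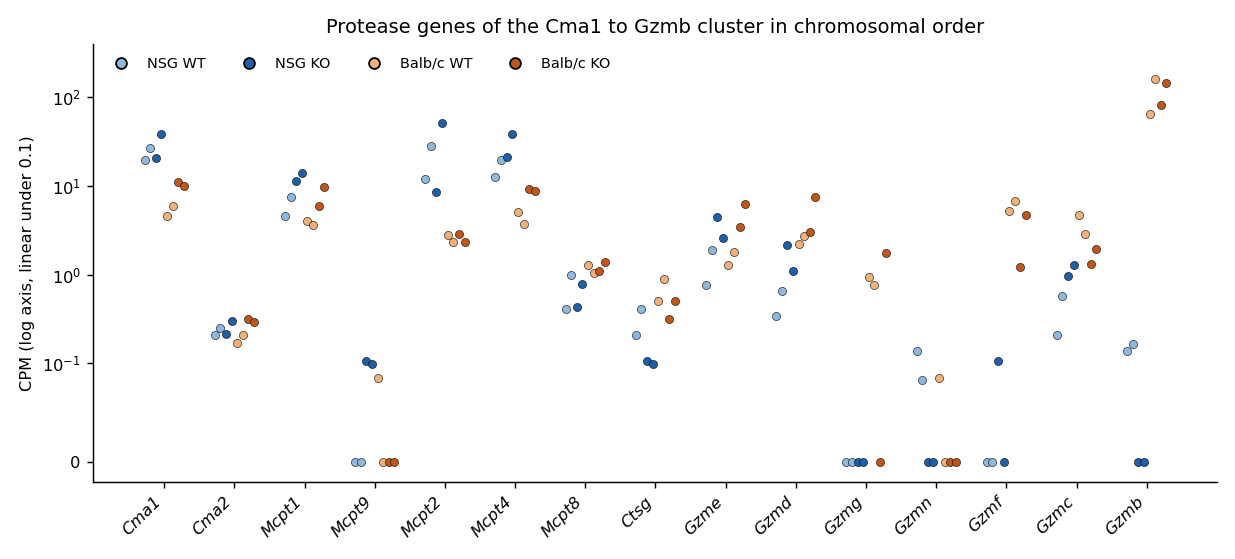
CPM (log axis, linear under 0.1) of the 15 protein-coding genes from Cma1 to Gzmb in chromosomal order, 1 point per library. Cma1, Mcpt2 and Mcpt4 are lower in every Balb/c library, and Gzmb is at most 0.166 CPM in NSG and 64.8 to 162 CPM in Balb/c.

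Sequence shared with other genes bears on these values, since reads from shared stretches may be dropped or misassigned. Of the 50-base words in its annotated transcripts, Mcpt4 shared 5.48% with Cma2 or Mcpt9, Cma1 shared 5.38% with Gm48934, and Cpa3 and Tpsb2 shared 0%. Ms4a2, a gene with few counts, shared 2.1% with Ms4a4b. Hdc shared 0.141% with other genes, and Kit and Fcer1a shared 0%. The levels of Gm48934 and Ms4a4b are not given here. Mcpt9 was at 0 or 1 count in every library and Cma2 at 0.170 to 0.317 CPM. Cpa3 also contains the microRNA gene Mir7007 on the same strand. Tpsab1, the tryptase next to Tpsb2, shared none of its 50-base words with another gene. It was at 15.0 and 20.5 CPM in NSG wild type, 5.67 and 21.9 in NSG knockout, 2.12 and 3.67 in Balb/c wild type and 6.56 and 7.22 in Balb/c knockout. It fell in the wild type (log2 fold change -2.60, edgeR adjusted p = 0.0166) and was not called in the knockout (adjusted p = 0.207), where the lower NSG library lay below both Balb/c libraries.

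The alpha chain of the IgE receptor followed the proteases at a lower level. Fcer1a, which binds IgE itself (chr1:173221284-173227214, minus strand), was at 3.32 and 2.90 CPM in NSG wild type (48 and 35 counts), 2.35 and 2.98 in NSG knockout, 0.595 and 0.485 in Balb/c wild type (7 counts in each) and 1.38 and 0.802 in Balb/c knockout. All 4 Balb/c libraries were below all 4 NSG libraries. It was 5.72-fold lower in Balb/c wild type (log2 fold change -2.51, SE 0.46, edgeR adjusted p = 0.00815). That call was lost without the NSG parental (adjusted p = 0.0589), the Balb/c parental (0.0552) or the Balb/c vCas9 library (0.0713). In the knockout the log2 fold change of -1.27 (SE 0.43) missed the threshold (adjusted p = 0.0562), and it passed without the Balb/c clone 54 library (adjusted p = 0.0426), with scaling by total counts (0.0405) and with a stricter low-count filter (0.0460).

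Ms4a2, the beta chain that amplifies the receptor's signal (chr19:11615523-11623719, minus strand), had too few counts for a firm statement. It had 6 and 14 counts in NSG wild type, 8 and 31 in NSG knockout, 3 and 4 in Balb/c wild type and 19 and 18 in Balb/c knockout, or 0.255 to 3.08 CPM. The wild-type Balb/c libraries were the lowest, and the knockout groups overlapped between hosts. From NSG to Balb/c edgeR gave a log2 fold change of -1.51 (SE 0.86, adjusted p = 0.208) in the wild type and -0.78 (SE 0.69, adjusted p = 0.427) in the knockout. Fcer1a was most like Gins2, Rps2, Mier2, Ppp1r14b and Iars2 over the 8 libraries (r 0.989 to 0.993), and Ms4a2 like Qrsl1, Otud3, Afap1l1, Fat4 and Fgd5 (r 0.953 to 0.976).

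Basophils also carry Fcer1a and Ms4a2. Their own proteases were scarce: Mcpt8 had 4 to 21 counts and Prss34 0 to 9 counts in a library. The 9 basophil genes other than Fcer1a and Ms4a2 summed to 84.9 to 110 CPM in NSG and 235 to 406 CPM in Balb/c. Without Ccr3 the sums overlapped, at 83.1 to 109 CPM in NSG and 80.9 to 102 CPM in Balb/c. In NSG these sums were largely Itga2, which was lower in Balb/c (values below). Their overlap therefore does not show that the other genes were level. The genes did not move together. Ccr3, a chemokine receptor that eosinophils use as well, rose in both comparisons, from 1.11 to 3.42 CPM in NSG to 154 to 314 CPM in Balb/c. Cd200r4, a receptor of the CD200 family, rose from 0.0828 to 1.18 CPM to 12.7 to 35.7 CPM, and Il4, a cytokine of T cells too, from 0.428 to 1.45 CPM to 16.1 to 31.5 CPM. Cd200r3 was called higher in the wild type (log2 fold change 2.37, edgeR adjusted p = 0.0277). Itga2, an integrin subunit that other cells carry too, fell in both comparisons, from 66.6 to 95.4 CPM in NSG to 20.6 to 53.1 CPM in Balb/c. Of the whole list, Fcer1a and Ms4a2 included, 10 of 11 passed the filter, with 4 called higher and 2 lower in the wild type and 3 higher and 1 lower in the knockout. The shares over all genes were 15.3% higher and 16.2% lower in the wild type, and 15.7% and 15.4% in the knockout. The part of basophils in the level of Fcer1a was not tested.

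Of 15 genes of FceRI signalling, the chain below the receptor, all of which passed the filter, 10 were called higher and 0 lower in Balb/c wild type, and 12 higher and 0 lower in Balb/c knockout, with a median log2 fold change of 0.92 and 1.29. Over all genes 15.3% were called higher and 16.2% lower in the wild type, and 15.7% and 15.4% in the knockout. These genes also serve antigen and Fc receptors of T cells, macrophages and other leukocytes. Fcer1g, the gamma chain shared with other Fc receptors, was at 112 to 174 CPM in NSG and 248 to 390 CPM in Balb/c (log2 fold change 0.54, edgeR adjusted p = 0.0977 in the wild type; 1.33, adjusted p = 0.00436 in the knockout). Syk, the kinase recruited to the receptor, rose by 1.85 and 1.55 on the log2 scale. Lat, an adaptor of T cells and mast cells, rose by 4.67 and 3.92. Lyn, Fyn, Btk, Lcp2, Gab2, Inpp5d and Ptpn6 also rose in both comparisons, by 0.51 to 1.70. Itpr2 was called in the wild type (1.09), and Lat2 (1.43) and Prkcd (1.40) in the knockout. The difference between the host comparisons, which is the interaction, was called for none of these 3 (-0.96 for Itpr2, 1.50 for Lat2 and 1.05 for Prkcd, edgeR adjusted p of 0.109 to 0.131). Plcg1 (log2 fold change -0.13 in the wild type and -0.34 in the knockout) and Plcg2 were called in neither.

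Kit had a pattern of its own, with the NSG wild-type libraries below all others. Kit, the receptor tyrosine kinase on which mast cell survival depends (chr5:75574916-75656722, plus strand), was at 13.5 and 17.2 CPM in NSG wild type, 36.1 and 35.9 in NSG knockout, 35.2 and 44.4 in Balb/c wild type and 21.0 and 41.5 in Balb/c knockout. The other 3 groups overlapped. Kit was 2.59-fold higher in Balb/c than in NSG wild type (log2 fold change 1.37, SE 0.32, edgeR adjusted p = 0.0172), opposite to the proteases, and in the knockout the log2 fold change was -0.21 (SE 0.31, adjusted p = 0.647; without Balb/c clone 69, -0.77 and 0.0441). The wild-type call was lost when any 1 of its 4 libraries was left out, with adjusted p of 0.0544 to 0.115. Per kilobase of exon its group means were 1.72 to 4.46 CPM.

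Cells other than mast cells can carry Kit. The 8 mammary epithelial genes (Epcam and Krt8 among them) summed to 1079 and 1349 CPM in NSG wild type, 2613 and 1997 in NSG knockout, 707 and 1644 in Balb/c wild type and 595 and 2994 in Balb/c knockout. Kit did not follow this sum across groups: the Balb/c parental library had a lower sum than both NSG wild-type libraries and more Kit. Within each group the library with the higher sum had more Kit, but in NSG knockout Kit was nearly level, at 36.1 and 35.9 CPM. Of that list 1 of 8 was called higher in the wild-type host comparison (15.3% of all genes) and 1 of 8 lower in the knockout (15.4% of all genes). Of 7 melanocyte genes, Tyr, Tyrp1 and Mlana had 3 counts or fewer in every library, and Dct, at 0 to 4 counts, also missed the filter. Pmel, Mitf and Sox10 passed it. Pmel was called higher in the wild-type host comparison (log2 fold change 2.13, edgeR adjusted p = 0.0376) and not called in the knockout. It was at 0.762 and 0.828 CPM in NSG wild type and 5.18 and 1.87 in Balb/c wild type. In the knockout Pmel was at 1.07 and 1.49 CPM in NSG and 0.741 and 1.60 in Balb/c. Mitf (32.1 to 101 CPM) and Sox10 (0.741 to 3.19 CPM) were called in neither host comparison. Kit was most like Nbeal2, Sox6, Syn3, Nos1ap and Svil (r 0.961 to 0.982). The part of epithelial, 4T1 or melanocytic cells in the level of Kit was not tested.

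Hdc was the most abundant of the 8 genes and the least like the others. Hdc, which converts histidine to histamine (chr2:126593667-126619299, minus strand), was at 282 and 378 CPM in NSG wild type, 514 and 207 in NSG knockout, 1108 and 1098 in Balb/c wild type and 91.6 and 533 in Balb/c knockout. The Balb/c wild-type libraries were the highest and the Balb/c clone 54 library the lowest. Per kilobase of exon its means were 51.6 CPM in NSG wild type, 56.4 in NSG knockout, 173 in Balb/c wild type and 48.9 in Balb/c knockout, each above the proteases. From NSG to Balb/c its log2 change was 1.74 (SE 0.73, adjusted p = 0.102 by edgeR) in the wild type and -0.21 (SE 0.71, adjusted p = 0.852) in the knockout, so neither was called. The wild-type difference passed without the low-count filter (adjusted p = 0.0262) and in a fit of the compared libraries alone (adjusted p = 0.000900). It also passed when either Balb/c knockout library was left out of the fit (adjusted p = 0.0123 and 0.0127), and the knockout one without Balb/c clone 69 (log2 fold change -1.97, adjusted p = 0.0277).

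Neutrophil genes varied in the same libraries. The 12 genes listed (S100a8, S100a9, Ly6g and others) summed to 1383 and 1740 CPM in NSG wild type, 3264 and 1529 in NSG knockout, 7860 and 6239 in Balb/c wild type and 549 and 2667 in Balb/c knockout. The libraries with most and least of them were in Balb/c wild type and Balb/c clone 54, as for Hdc. Of the 11 that passed the filter, 7 were called higher and 0 lower in the wild-type host comparison, and 1 higher (Retnlg) and 1 lower (Ngp) in the knockout. The shares over all genes were 15.3% higher and 16.2% lower in the wild type, and 15.7% and 15.4% in the knockout. Elane was below the filter and Camp was at 0 counts in the Balb/c clone 54 library. The proportion of Hdc to these genes differed from gene to gene. Over the 10 listed genes with counts in every library, the ratio of Hdc counts to the gene's counts ranged 2.22-fold (S100a9) to 42.9-fold (Ngp), with a median of 3.54-fold. It ranged 10.9-fold for Retnlg and 21.1-fold for Mpo, and 58.4-fold for Cpa3. Hdc was most like Spatc1, Pip4k2c, Gm2511, Il1bos and Asprv1 (r 0.983 to 0.994). Il1bos overlaps Il1b on the other strand, and without a stated strand setting its reads cannot be told apart from those of Il1b. The part of neutrophils in the level of Hdc was not tested.

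**Figure D5:**
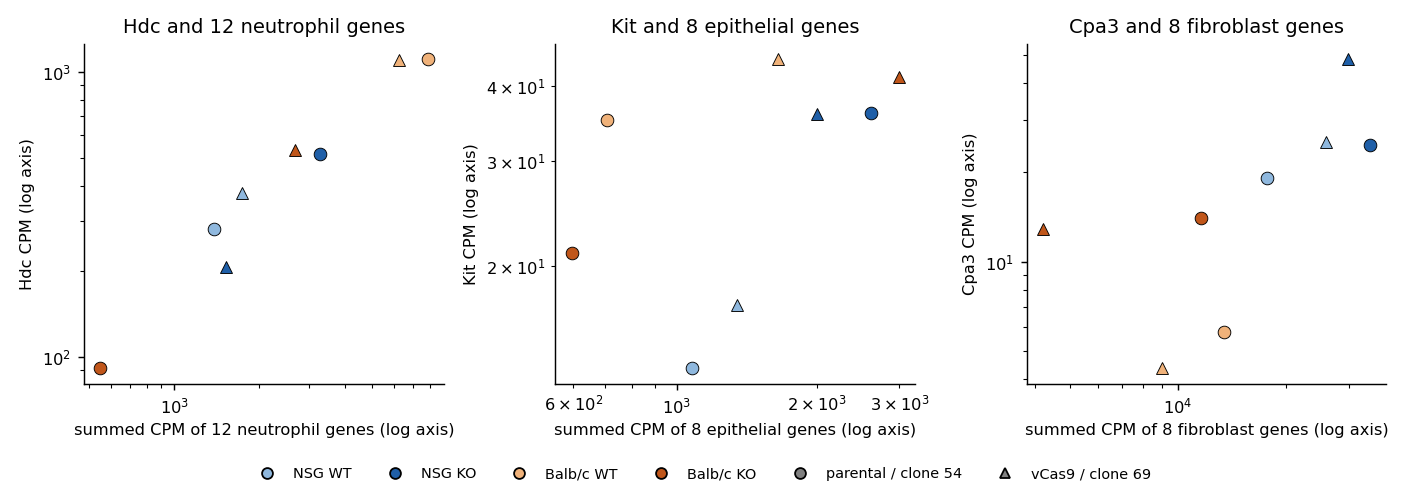
CPM of Hdc, Kit and Cpa3 (y, log axis) against the summed CPM of neutrophil, epithelial and fibroblast genes (x, log axis), 1 point per library. Hdc is highest in the 2 Balb/c wild-type libraries, where neutrophil genes sum to 6239 and 7860 CPM, and lowest in Balb/c clone 54, where they sum to 549 CPM.

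Loss of CD95 gave no call among the 8 genes in either host. In NSG, edgeR called 0 of the 8, as it called 0.0131% of all genes (2 genes), and 2 of the 8 had an unadjusted p under 0.05, as did 14.0% of all genes. Those 2 were Kit, at 13.5 and 17.2 CPM in wild type and 36.1 and 35.9 in knockout (log2 fold change 1.23, SE 0.32, adjusted p = 0.228), and Mcpt4 (log2 fold change 0.89, SE 0.34, adjusted p = 0.315). They were also the only 2 of the 8 with both knockout libraries above both wild-type libraries, as were 26.7% of all genes. DESeq2 called Kit (adjusted p = 0.0343), among 340 genes that it called in NSG.

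In Balb/c, edgeR again called 0 of the 8, as it called 0.176% of all genes (27 genes), and 6 of the 8 had an unadjusted p under 0.05, as did 30.9% of all genes. Both knockout libraries lay above both wild-type libraries for 6 of the 8 genes (32.9% of all genes): the 4 proteases, Fcer1a and Ms4a2. Cpa3 had a log2 fold change of 1.42 (SE 0.34, adjusted p = 0.0605) and Tpsb2 one of 1.50 (SE 0.44, adjusted p = 0.0784). The values of Cma1 (1.02), Mcpt4 (1.03), Fcer1a (1.02) and Ms4a2 (2.07) had adjusted p of 0.0979 to 0.185. Hdc lay lower in both knockout libraries, as did 29.3% of all genes, with a log2 fold change of -1.82 (SE 0.74, adjusted p = 0.142), and the 2 clones differed from each other more (91.6 and 533 CPM) than the wild-type lines did. DESeq2 called Cpa3 (adjusted p = 0.0108) and Tpsb2 (adjusted p = 0.0220), among 2144 genes that it called in this comparison. When 1 library was left out, the log2 fold change ranged from 1.14 to 1.63 for Cpa3 and from 1.26 to 1.62 for Tpsb2. It ranged from -0.91 to -0.04 for Kit and from -3.58 to -1.15 for Hdc.

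Genes of other cell types were compared in the same Balb/c libraries, where 53.3% of all genes had log2 fold changes above 0 and 46.7% below 0. The 8 endothelial genes summed to 188 and 271 CPM in Balb/c wild type and 553 and 487 in Balb/c knockout, with all 8 log2 fold changes above 0 and 0 of 8 called. The 8 macrophage genes summed to 1806 and 2043 CPM in wild type and 9578 and 3694 in knockout, also with 8 of 8 above 0 and 0 called. The 11 tested neutrophil genes all had log2 fold changes below 0, with 0 called. All 8 fibroblast genes were below 0 as well, opposite to the proteases, with 0 called. The other lists were mixed, again with 0 called. Above 0 were 6 of 8 adipocyte, 6 of 8 dendritic cell, 6 of 8 mammary epithelial and 6 of 7 T cell genes. The same held for 4 of 8 eosinophil, 8 of 10 basophil and 1 of 3 melanocyte genes tested. Their part in the values of the proteases and of Hdc was not tested.

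Whether the knockout differed between the hosts was tested as an interaction. EdgeR called 0 of the 8 and 0% of all genes, and 1 of the 8, Kit, had an unadjusted p under 0.05, as did 22.5% of all genes. The difference for Kit was -1.58 on the log2 scale (SE 0.44, adjusted p = 0.118), since Kit lay higher in NSG knockout than in NSG wild type and the Balb/c groups overlapped. DESeq2 called Kit in this comparison (adjusted p = 0.0204), among 974 genes called. The difference was -1.95 (SE 1.02, adjusted p = 0.294) for Hdc and 0.14 to 1.08 for the 4 proteases, with adjusted p of 0.315 to 0.892. Over both hosts together, edgeR called 0 of the 8 and 0% of all genes, with 5 of the 8 at an unadjusted p under 0.05 (17.3% of all genes). The 4 proteases had log2 fold changes of 0.67 to 1.05 (adjusted p 0.197 to 0.257) and Ms4a2 one of 1.66 (adjusted p = 0.225). DESeq2 called Cpa3 (adjusted p = 0.0201) and Mcpt4 (adjusted p = 0.0319), among 695 genes that it called over both hosts. The host and knockout comparisons share libraries, so their values are not independent of each other.

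Of 18 mast cell genes listed beyond the 8, 15 passed the filter, and their calls came near the share over all genes (15.3% higher and 16.2% lower in the wild type, 15.7% and 15.4% in the knockout). In the wild-type host comparison 3 were called lower (Tpsab1, Mcpt2 and the granule membrane protein Cd63, log2 fold change -0.76) and 2 higher (Slc18a2, which loads amines into granules, at 1.35, and Cyp11a1, a steroid-making enzyme, at 1.40). In the knockout, Mcpt2 and Mrgprx2 (-3.04, at 0.749 and 3.38 CPM in NSG and 0.265 and 0.219 in Balb/c) were called lower, and Cyp11a1 (2.02) and Il1rl1, the receptor for IL-33 (1.96), higher. The receptors Mrgprb1 and Mrgprb2, which detect basic secretagogues, were at 0.107 to 3.98 CPM and not called. The median log2 fold change of the 15 was -0.64 in the wild type and -0.04 in the knockout.

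Of 17 genes for mediator synthesis, storage and reception, 16 passed the filter, with 6 called higher and 1 lower in the wild type and 6 higher and 0 lower in the knockout. The other 9 and 10 were not called, and 6 of the 16 log2 fold changes in the wild type and 3 in the knockout were below 0. Over all genes 15.3% were called higher and 16.2% lower in the wild type, and 15.7% and 15.4% in the knockout. Srgn, the proteoglycan core serglycin of mast cell and other leukocyte granules, was at 672 to 1600.25 CPM in NSG and 2864 to 3636 CPM in Balb/c and rose by 1.42 and 1.52 on the log2 scale. The leukotriene genes Alox5 (2.14 and 2.49) and Alox5ap (57.4 to 106 CPM in NSG and 187 to 219 in Balb/c) and the leukotriene receptor Cysltr2 (3.45 and 3.95) rose in both comparisons. Ltc4s, which makes leukotriene C4, was at 15.0 and 16.2 CPM in NSG wild type and 7.73 and 5.06 in Balb/c wild type and was the 1 gene called lower (-1.29). The histamine receptor Hrh2 (1.34) and Slc18a2 were called higher in the wild type, and Cysltr1 (1.43) and Ptgdr2 (2.07) in the knockout. Hpgds, the prostaglandin D synthase of mast cells, was at 21.8 to 43.5 CPM and was not called.

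Of 18 growth factor, cytokine and transcription factor genes, 16 passed the filter, with 8 called higher and 0 lower in the wild type and 7 higher and 1 lower in the knockout. Over all genes 15.3% and 15.7% were called higher and 16.2% and 15.4% lower in these comparisons. Kitl, the ligand of Kit, was at 62.9 to 99.7 CPM in NSG and 35.8 to 77.0 CPM in Balb/c, overlapping, and was not called (log2 fold change -0.51 and -0.59, edgeR adjusted p = 0.187 and 0.141). The type 2 cytokines Il4 (3.78 and 4.85), Il5 (0.0693 to 0.199 CPM in NSG and 1.19 to 6.35 in Balb/c) and Il13 (5.60 and 6.44) rose in both, as did Stat5b and Bhlhe40, with Stat5a (1.29) and Il9r (3.60) in the wild type and Il1rl1 in the knockout. Gata1, which directs mast cell, eosinophil and erythroid genes, was at 0 to 0.214 CPM in NSG and 4.67 to 13.9 CPM in Balb/c. The 8 eosinophil genes summed to 18.6 to 36.9 CPM in NSG and 523 to 1323 CPM in Balb/c in the same libraries, and their part in Gata1 was not tested. Gata2, the factor that mast cells depend on, was at 1.87 to 4.81 CPM in both hosts and not called. Tslp, an epithelial cytokine that acts on mast cells, fell in the knockout (-4.31, edgeR adjusted p = 0.00395), from 78.0 and 17.8 CPM in NSG to 2.06 and 2.77 in Balb/c. In the 2 knockout comparisons and the interaction, edgeR called 0 genes of each of these 4 lists. At an unadjusted p under 0.05, 4, 2, 2 and 3 genes of FceRI signalling, mediators, growth factors and further mast cell genes passed in NSG, 5, 5, 4 and 4 in Balb/c, and 4, 4, 2 and 3 in the interaction. These counts are out of 15, 16, 16 and 15 genes tested, and 14.0%, 30.9% and 22.5% of all genes passed likewise in the 3 comparisons.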

How the data were processed

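RNA sequencing counts of 8 libraries from tumors were analysed, 1 file per library. Per the submitters' processing notes the tools were cutadapt 1.13, STAR, HTSeq 0.6.1p1 and DESeq2 with the builds mm10 and hg19. The strand setting, annotation, filters and the role of each build are not given in the sources used here. The authors deposited raw counts per Ensembl gene, and no normalization was visible in them. Symbols, positions and exon lengths came from GENCODE mouse release 21 (24942 of 25006 identifiers). The 8 genes and all lists were chosen with earlier results of these data known.

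Groups came from host strain and line genotype. EdgeR 4.0.16 (R 4.3.3) was run with TMM scaling, filterByExpr and a quasi-likelihood test on 4 group means over all 8 libraries, adjusted by Benjamini-Hochberg over 15310 genes. The test over both hosts used an additive host term. CPM values are unlogged, and correlations used log2 CPM with a prior count of 2. The test was tried on simulated counts. Genes were named by a set rule: all 8, the genes of 4 further mast cell lists past the threshold, and the 5 genes most correlated with each. Other genes, such as those of the chromosome 14 cluster, were named after their values were seen. Alternatives were DESeq2 1.42.0, limma-voom (limma 3.58.1), other scalings and filters, fits on the compared libraries alone, a line block and leaving out each library.

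Libraries of the 2 hosts were paired by line, since each line was grown in both. The differences between the paired lines correlated across hosts with r 0.087 for the wild-type lines and -0.353 for the knockout clones, over 15310 genes. Totals of 8680070 to 19655945 counts limit the precision of the low genes Ms4a2 and Fcer1a, whereas Hdc, with many counts, varied widely between the 2 libraries of each knockout group (SE 0.71 to 0.74 in the pairwise host and knockout comparisons).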

Additional observations from a re-analysis of the deposited data

How the results depend on the processing

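Of 737 gene by setting values for the 8 genes, 682 kept their direction and their side of the threshold, 18 lost the call, 24 gained it and 13 reversed. The cause of these changes was not tested, except that leaving out a library leaves an arm of 1, assumed to vary like the other groups. For DESeq2, 1 of the 8 genes was called for the knockout in NSG (Kit), 2 in Balb/c (Cpa3 and Tpsb2), 1 in the interaction (Kit) and 2 over both hosts (Cpa3 and Mcpt4), where edgeR called 0. Without the low-count filter, 3 were called for the knockout in Balb/c (Cpa3, Tpsb2 and Hdc) and 1 in the interaction (Kit). For the host effect in the wild type, 7 instead of 6 (Hdc added) were called without the filter and on the compared libraries alone. For the host effect in the knockout, Fcer1a was added by scaling to total counts and by the stricter filter, and 2 instead of 4 were called when only the compared libraries were fitted, and 2 with the line as replicate block. The block changed no other call among the 8 genes. With the clones crossed, which was chosen after seeing the data, 4 were called for the host effect in the knockout and 0 in the interaction. No paired analysis was possible for wild type against knockout because those libraries share no line. Leaving out 1 library gave 3 to 7 called genes for the host effect in the wild type, 0 to 5 in the knockout, 0 to 3 for the knockout in Balb/c, 0 to 2 in the interaction and 0 in NSG and over both hosts. The lowest counts came without the Balb/c vCas9 and the NSG clone 69 library, and the highest for the knockout in Balb/c and the interaction without Balb/c clone 69.

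The reversals all came from leaving out 1 library and concern values that were not called. The log2 fold changes for the knockout in NSG ranged from -0.67 to 0.64 for Hdc, -0.19 to 0.73 for Cma1 and -0.43 to 0.93 for Tpsb2. Those for the host in the knockout ranged from -1.97 to 0.59 for Hdc, -1.41 to 0.42 for Ms4a2 and -0.77 to 0.18 for Kit. In the interaction they ranged from -0.21 to 0.63 for Mcpt4 and -0.14 to 1.94 for Ms4a2.

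Over all genes, the 4825 calls for the host in the wild type became 2073 with the block, and the 4757 in the knockout became 2878 with the block and 2450 on the compared libraries alone. Leaving out 1 library gave 858 (NSG parental), 1270 (NSG vCas9), 1289 (Balb/c parental) and 1482 (Balb/c vCas9) in the wild type and 2461 (NSG clone 69) in the knockout. For the knockout in NSG the 2 calls became 340 with DESeq2 and 133 without the filter. In Balb/c the 27 calls became 2144 with DESeq2, 1774 without the filter, 94 with DESeq2's size factors, 0 on the compared libraries alone and 3886 without clone 69. In the interaction the 0 calls became 974 with DESeq2, 674 without the filter, 307 with the clones crossed and 2370 without Balb/c clone 69. Over both hosts they became 695 with DESeq2 and 14 without the filter. Depth limits Ms4a2, at 3 to 31 counts in a library, and Fcer1a, at 7 counts in both Balb/c wild-type libraries.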

Other observations

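The protein-coding genes around Cpa3 and Tpsb2 are described here, in a window that reached further towards higher than towards lower coordinates. On chromosome 17, Chtf18, Rpusd1, Mslnl and Msln lie at that far end, from base 25718926 to 25754378. Tpsab1 is also among the further mast cell genes, so the neighbour counts do not describe a symmetric or independent surrounding. Around Tpsb2, 8 neighbours passed the low-count filter, with 4 called lower in the wild-type host comparison (Tpsab1, Chtf18, Rpusd1 and Msln), 3 called lower in the knockout (Chtf18, Mslnl and Msln) and 0 called higher in either, where 16.2% and 15.4% of all genes were called lower. Around Cpa3, 2 neighbours passed the filter, with 0 called lower and 1 called higher in each comparison. Beside Cpa3 on chromosome 3, Gyg, which primes glycogen synthesis, was at 31.0 to 39.6 CPM in NSG and 59.0 to 63.8 CPM in Balb/c, and was called higher in both host comparisons (log2 fold change 0.68, edgeR adjusted p = 0.0129 in the wild type; 0.96, adjusted p = 0.00281 in the knockout), opposite to Cpa3. Cpb1, a pancreatic carboxypeptidase gene next to Cpa3, was at 0 to 0.497 CPM. On the Tpsb2 side of chromosome 17, Tpsg1, a membrane-bound tryptase, was at 0.0828 to 0.497 CPM in NSG and at 0 counts in all 4 Balb/c libraries, and did not pass the low-count filter. Msln, a mesothelial surface protein gene further along, was at 43.8 to 71.8 CPM in NSG and 3.81 to 18.8 CPM in Balb/c, and fell in both (log2 fold change -1.93, adjusted p = 0.0171; -3.63, adjusted p = 0.00170). These genes were named after their values were seen.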
